A study of Mus musculus with 24 samples.

Results

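Hoxa5, Hoxa7, Hoxa9, Hoxa10, Hoxb4, Hoxb5, Meis1 and Pbx3 are homeobox genes, which code for DNA-binding transcription factors. They were taken by name from a table of read counts with 24421 gene lines, and these 8 genes are described here in blood stem and progenitor cells of aged and young mice. The study sorted 3 populations from bone marrow enriched for CD117 (Kit) positive cells of male C57BL/6 mice: long-term hematopoietic stem cells (LT-HSC, gated as CD150+ and CD48-), short-term stem cells (ST-HSC, CD150- and CD48-) and multipotent progenitors (MPP, CD150- and CD48+). Every gate also required cells without lineage markers that carried Sca1 and Kit. Mice were aged (107 weeks) or young (12 weeks), with 4 mice of each age and 4 bulk RNA libraries of each population and age, 24 in all. No treatment, transgene or allele is named in the labels, which tie no library to a mouse. With 12 libraries from 4 mice at each age, libraries of different populations must share mice, and tests between populations took them as independent. Within a population and age, p-values measure the spread between libraries, which were counted as separate mice.

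Hox genes lie in 4 clusters and specify position in the embryo. In adult bone marrow they are used again, mostly in stem and progenitor cells, and are turned down as cells mature. Hox proteins bind DNA together with partners of the TALE homeobox class, among them the Meis and Pbx proteins, and a raised level of Hoxa9 with Meis1 is a known driver of leukemia in mice. Hoxb4 is known for expanding mouse stem cells when overexpressed, and Hoxb5 has served as a reporter gene for long-term stem cells.

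The part of the homeodomain that lies against DNA is its recognition helix, and it is shown here because the 8 genes divide on it into Hox and TALE members. Each line gives the 24 bases, 5′ to 3′ in the coding direction, that code for the same 8 positions of the helix, read from GENCODE transcripts on GRCm38. Capitals mark codons that differ from those of Hoxa9.
Hoxa9: tggttccagaaccgcaggatgaaa
Hoxa10: tggTTTcagAATcgcaggatgaaa
Hoxa5: tggttcCAAaacAGGaggatgAAG
Hoxb5: tggttccagaacCGTCGCatgAAG
Hoxa7: tggttccagAATCGGCGCatgAAG
Hoxb4: tggttccagAATCGGCGCatgAAG
Meis1: tggTTTATTAATGCCCGGAGAAGA
Pbx3: tggTTTGGCaacAAACGAATCAGG
The other Hox genes listed differ from Hoxa9 in 2 to 4 of the 8 codons and in none of the amino acids. Meis1 and Pbx3 differ from Hoxa9 in 7 and 6 codons, and each in 4 amino acids. Hoxa7 and Hoxb4 have the same 24 bases, and their whole transcripts share an identical run of 47 bases. The transcripts of Hoxb4 and Hoxa6 share a run of 52 bases, Meis1 and Hoxb9 a run of 49, Hoxa7 and Hoxa6 a run of 47, and Hoxa9 and Hoxc5 a run of 31. Where in the transcripts these runs lie was not determined. How reads that fall in such runs were assigned is not given in the sources used here.

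Hoxa5 (chromosome 6, 52201754 to 52204587), Hoxa7 (52214491 to 52221854), Hoxa9 (52223100 to 52231089) and Hoxa10 (52231197 to 52240854) are neighbours on the minus strand of the Hoxa cluster in GRCm38. Hoxb5 (chromosome 11, 96303336 to 96306121) and Hoxb4 (96318267 to 96321638) lie on the plus strand of the Hoxb cluster. Meis1 (chromosome 11, 18879817 to 19018985) and Pbx3 (chromosome 2, 34171457 to 34373142) lie outside the clusters, both on the minus strand. The antisense gene Hoxaas3 overlaps 28.8% of the exonic bases of Hoxa7, and Hoxb5os overlaps 5.28% of those of Hoxb5. The library chemistry marks no strand, so reads from these stretches cannot be told apart from reads of the antisense gene.

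Libraries held 7307151 to 12946550 counts in genes, and 14205 genes had enough counts to be tested, the 8 among them. Slamf1, which codes for CD150, averaged 72.1 ± 11.7 CPM in aged LT-HSC and 26.2 ± 3.85 CPM in young LT-HSC and below 1 CPM in the other groups, where CPM stands for counts scaled to library size with TMM factors (mean ± SD, n = 4 here and throughout). Cd48 averaged 90.2 ± 6.42 CPM in aged MPP and 66.4 ± 2.92 CPM in young MPP, and 0.178 ± 0.241 CPM in aged LT-HSC and 1.25 ± 1.55 CPM in young LT-HSC. In ST-HSC, gated as CD48-, it was between the other populations, with 14.4 ± 1.57 CPM in aged ST-HSC and 11.5 ± 3.09 CPM in young ST-HSC. Granulocyte marker genes took 0.252% to 0.319% of the counts of aged ST-HSC libraries 1 to 3 and 0.0173% in library 4, against 0.00887% to 0.0366% in young ST-HSC. They took 0.00694% to 0.00792% in aged LT-HSC, and in young LT-HSC 0.099% in library 1 and at most 0.00451% in libraries 2 to 4. For the 8 genes, calls between populations of aged mice that were lost without these 4 libraries are therefore given also without them. So are their calls with age in LT-HSC and ST-HSC. Other results use all libraries unless stated.

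All 8 genes had counts in all 24 libraries (the plot of levels by library). Per kilobase of exon, Meis1 was the most abundant of the 8 in every group. It stood at 205 ± 9.95 CPM per kb in aged and 183 ± 7.83 in young LT-HSC, at 155 ± 15 in aged and 160 ± 15.3 in young ST-HSC, and at 75.9 ± 10.5 in aged and 98.4 ± 7.14 in young MPP. None of the other 7 genes was above 23.2 CPM per kb in any group. That was the level of Pbx3 in aged LT-HSC (± 0.901), in the second place there, above Hoxa5 at 17.6 ± 6.1, with Hoxb4, Hoxa10, Hoxa9 and Hoxb5 between 14.1 and 10.8 and Hoxa7 last at 3.66 ± 1.31. Several neighbours in that order, such as Hoxb4, Hoxa10 and Hoxa9, differed by less than their SDs. In young LT-HSC Pbx3 was sixth at 8.55 ± 0.589. Its place at both ages depends on which annotated exons are counted. With all annotated exons Pbx3 was in place 5 in aged LT-HSC at 10.9 ± 0.421 CPM per kb, below Hoxa5, Hoxb4 and Hoxa10. In young LT-HSC it was then in place 7 at 3.99 ± 0.275. Hoxa9 held the second place in both ages of ST-HSC and MPP, at 17.8 ± 3.76 CPM per kb in aged and 22.7 ± 0.592 in young ST-HSC, and at 12.6 ± 1.93 in aged and 16.7 ± 1.26 in young MPP.

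**Figure D1:**
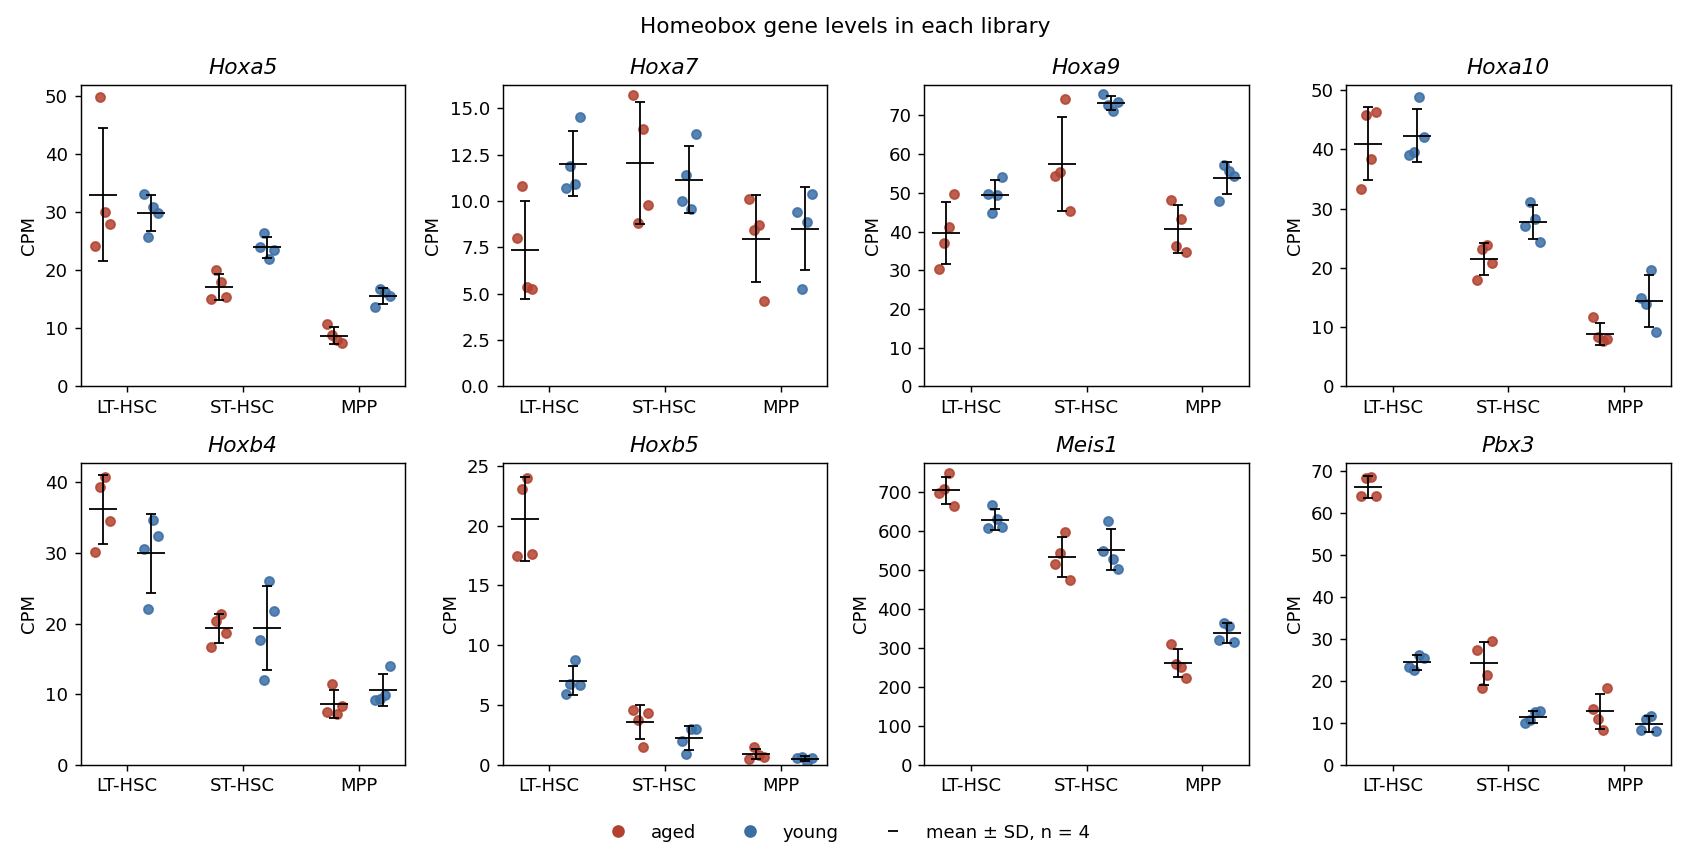
Level of each homeobox gene in CPM (TMM scaled), 1 panel per gene with its own axis, 1 point per library; aged libraries are left of young libraries in each population, and lines show the mean and SD of 4 libraries. In LT-HSC the aged libraries of Hoxb5 (17.5 to 24 CPM) and Pbx3 (64.1 to 68.6 CPM) lie wholly above the young ones, while Hoxa5 and Meis1 are lower in aged than in young MPP.

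In LT-HSC, Pbx3 and Hoxb5 were the 2 of the 8 genes that rose with age. Pbx3, a Pbx protein that works as a partner of Hox proteins, was at 64.1, 68.5, 68.6 and 64.1 CPM in aged LT-HSC libraries 1 to 4, against 23.4, 22.6, 26.2 and 25.4 CPM in young ones. The aged libraries were closely spaced, and the groups stood far apart. Its log2 change was 1.44 ± 0.18 (SE), or 2.72-fold, with adjusted p = 1.8e-06. All adjusted p-values are Benjamini-Hochberg values of the edgeR quasi-likelihood fit unless another tool is named. In bulk RNA, a change in the share of cells that carry a transcript and a change in the amount per cell cannot be told apart.

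Hoxb5 was at 17.5, 23.1, 24 and 17.6 CPM in aged LT-HSC, against 5.93, 6.77, 8.76 and 6.7 CPM in young LT-HSC. The groups did not overlap, with the lowest aged library at 17.5 and the highest young library at 8.76 CPM. The log2 change was 1.54 ± 0.338, or 2.91-fold (95% interval of the log2 change 0.83 to 2.25, adjusted p = 0.0017). Both calls held in every alternative run, with adjusted p of at most 2.4e-05 for Pbx3 and 0.0093 for Hoxb5. Without the 4 libraries high in granulocyte markers, the log2 changes in LT-HSC were 1.40 for Pbx3 (adjusted p = 1.5e-05) and 1.45 for Hoxb5 (0.0042). Of all tested genes 18.9% passed in LT-HSC in either direction, with 9.98% higher and 8.87% lower, and the groups of 22.1% did not overlap, so the count of 2 in 8 is near the background. None of the 8 genes was lower by edgeR, DESeq2 or limma-voom, and 2 were lower at an unadjusted p under 0.05.

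The other 6 genes did not pass in LT-HSC. Meis1 had 705 ± 34 CPM in aged LT-HSC and 629 ± 26.9 CPM in young LT-HSC (log2 change 0.17, adjusted p = 0.2), and its libraries overlapped at 665 to 748 against 608 to 666 CPM. Hoxb4 had 36.2 ± 4.82 and 29.9 ± 5.57 CPM in aged and young LT-HSC (0.27, 0.37), and Hoxa10 had 41 ± 6.24 and 42.3 ± 4.51 CPM (-0.05, 0.89). Hoxa5 was at 24.2, 49.8, 30 and 28 CPM in aged libraries against 33.1, 25.8, 30.9 and 29.8 CPM in young ones. A single aged library, the second, stood above the young range of Hoxa5, and 1 fell below it.

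Hoxa7 and Hoxa9 were lower on average in aged LT-HSC but missed the threshold. Hoxa7, a Hoxa cluster gene that is active together with Hoxa9 in leukemias with rearranged Kmt2a, was at 7.98, 10.8, 5.36 and 5.24 CPM in aged LT-HSC, against 10.7, 11.9, 10.9 and 14.5 CPM in young ones. Aged libraries 3 and 4 were the lowest, and library 2 lay within the young range. Its log2 change was -0.71 ± 0.267 (adjusted p = 0.064), and it was -0.97 with adjusted p = 0.019 without aged library 2. Hoxa9 had 30.4, 37.1, 41.1 and 49.6 CPM in aged LT-HSC, against 49.7, 44.8, 49.5 and 54.2 CPM in young ones (log2 change -0.33, adjusted p = 0.1, and -0.47 with 0.023 without aged library 4). Aged library 4 was the only one within the young range of Hoxa9.

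In LT-HSC the megakaryocyte and platelet markers, 11 of 12 with a count at both ages, took 0.283% to 0.303% of counts in aged against 0.165% to 0.232% in young libraries, with Gp6 at 0 in both. Their part in the results for Pbx3 and Hoxb5 was not tested. T and NK cell markers, with Cd3e, Cd3g, Ncr1 and Gzma at 0 at both ages, took 0.00754% to 0.0122% in aged and 0.00193% to 0.00244% in young libraries (6 and 8 of 12 with a count). Endothelial and stromal markers, 10 of 12 with a count at both ages and Col3a1 and Dcn at 0, took 0.00914% to 0.0118% in aged and 0.00624% to 0.0075% in young libraries. Monocyte and macrophage markers took 0.00281% to 0.00432% in aged and 0.00621% to 0.0091% in young libraries (10 and 11 of 12 with a count), with Ccr2 at 0 at both ages. For each of these 3 lists the ages did not overlap, and their part in the results was not tested either. B and plasma cell markers overlapped, at 0.00909% to 0.0117% in aged and 0.0108% to 0.0155% in young LT-HSC, with Ms4a1, Pax5 and Igll1 at 0 in both.

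In ST-HSC, Pbx3 was the only one of the 8 genes that rose with age, and none fell by edgeR, DESeq2 or limma-voom (3 were lower at an unadjusted p under 0.05). It was at 27.4, 18.4, 21.5 and 29.6 CPM in aged ST-HSC, against 9.88, 10.6, 12.5 and 12.9 CPM in young ST-HSC. The lowest aged library, the second, stood above every young library. The log2 change was 1.08 ± 0.187, or 2.11-fold (adjusted p = 0.00069, at most 0.0085 in the alternatives). Without the 4 libraries high in granulocyte markers it was 1.37 (adjusted p = 0.0085), from a single aged ST-HSC library, number 4, that was taken to vary like the other groups. That library was itself the highest aged one in monocyte, B cell and T and NK cell markers, at 0.0552%, 0.0444% and 0.00704% of counts. Monocyte and macrophage markers, 12 of 12 with a count at both ages, took 0.0136% to 0.0552% in aged and 0.003% to 0.00552% in young ST-HSC, and their part in the result was not tested. Over all tested genes 5.79% passed in ST-HSC in either direction, with 3.58% higher and 2.21% lower.

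The remaining genes did not pass in ST-HSC, although 2 of them did not overlap between the ages. Hoxa5 was at 15.1, 20, 18 and 15.4 CPM in aged ST-HSC, against 24, 26.4, 21.9 and 23.5 CPM in young ST-HSC (log2 change -0.49 ± 0.176, adjusted p = 0.1). Hoxa10 was at 18, 23.2, 23.9 and 20.9 CPM in aged ST-HSC, against 27.1, 31.2, 28.2 and 24.3 CPM in young ST-HSC (-0.37 ± 0.175, 0.24). Over all tested genes the groups did not overlap for 10.9%. Hoxa9 had 57.3 ± 12.2 CPM in aged ST-HSC and 73.2 ± 1.9 CPM in young ST-HSC, and its aged library 3, at 74.2 CPM, was the one that reached the young range of 71 to 75.6 CPM. Its log2 change was -0.36 (adjusted p = 0.14), and -0.49 with adjusted p = 0.036 without that library. Hoxb5 had 3.55 ± 1.43 CPM in aged ST-HSC and 2.22 ± 1.02 CPM in young ST-HSC (log2 change 0.69, 95% interval -0.08 to 1.45, adjusted p = 0.3). Hoxa7, Hoxb4 and Meis1 had log2 changes of 0.12, -0.01 and -0.05.

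In MPP, Hoxa5, Hoxa10 and Meis1 fell with age and none of the 8 genes rose by edgeR, DESeq2 or limma-voom, nor at an unadjusted p under 0.05, where the count was 0. Hoxa5, which has been studied for its part in the choice between erythroid and myeloid fates, was at 10.8, 8.8, 8.05 and 7.45 CPM in aged MPP, against 13.7, 16.8, 16.2 and 15.5 CPM in young MPP. All aged libraries stood below the lowest young one. The log2 change of Hoxa5 was -0.82 ± 0.183, or 0.565-fold (adjusted p = 0.0041, at most 0.022 in the alternatives). Meis1, the Hox partner that is needed to keep adult mouse stem cells quiescent, was at 310, 259, 252 and 223 CPM in aged MPP, against 321, 363, 356 and 314 CPM in young MPP. The groups of Meis1 came within 4 CPM of each other and did not overlap. Its log2 change was -0.38 ± 0.088, or 0.77-fold (adjusted p = 0.0063, at most 0.036 in the alternatives).

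Hoxa10, a Hoxa gene of blood progenitors, was at 11.7, 8.36, 7.68 and 7.94 CPM in aged MPP, against 15, 13.9, 19.7 and 9.16 CPM in young MPP. The groups overlapped, since young library 4 stood below aged library 1. The log2 change was -0.70 ± 0.185, or 0.616-fold (adjusted p = 0.014). This call was lost by limma-voom (adjusted p = 0.063), in a fit to the MPP libraries alone (0.087), without aged MPP library 3 or 4 (0.053 and 0.055) and without young MPP library 3 (-0.50, 0.1). Over all tested genes 9.79% passed in MPP in either direction, with 5.53% higher and 4.27% lower, and the groups of 16.5% did not overlap. Among the 8 genes 3 were lower and the median log2 change was -0.34, against -0.004 over all tested genes.

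The stretch of DNA before the start of each of these 3 genes is printed because they fell together in aged MPP. The sequences are the 250 bases upstream of the RefSeq start on GRCm38.p6, read 5′ to 3′ on the strand of the gene.
Hoxa5, chr6:52204588-52204837, minus strand: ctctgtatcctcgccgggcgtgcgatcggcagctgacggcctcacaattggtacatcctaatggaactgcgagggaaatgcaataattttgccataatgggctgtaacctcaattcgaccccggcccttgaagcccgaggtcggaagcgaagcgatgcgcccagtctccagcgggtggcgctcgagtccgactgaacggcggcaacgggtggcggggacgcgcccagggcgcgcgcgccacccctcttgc
Hoxa10, chr6:52240855-52241104, minus strand: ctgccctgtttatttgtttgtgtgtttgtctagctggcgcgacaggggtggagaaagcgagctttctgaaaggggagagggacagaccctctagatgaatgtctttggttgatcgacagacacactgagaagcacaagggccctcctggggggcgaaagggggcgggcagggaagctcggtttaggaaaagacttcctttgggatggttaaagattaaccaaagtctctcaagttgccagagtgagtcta
Meis1, chr11:19018970-19019219, minus strand: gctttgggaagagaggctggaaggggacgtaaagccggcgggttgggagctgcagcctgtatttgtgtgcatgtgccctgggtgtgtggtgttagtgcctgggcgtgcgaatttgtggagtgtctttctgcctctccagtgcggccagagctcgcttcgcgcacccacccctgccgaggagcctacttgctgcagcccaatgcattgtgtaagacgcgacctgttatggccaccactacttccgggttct
Promoter entries in the RefSeq table covered 6 of the 8 genes. Each entry, of 300 bases with 50 after the start, was searched on both strands for TGACAG, the core site of Meis proteins, and for TGATTNAT, a joint site of Pbx and Hox proteins. Neither string occurred in any of the 7 entries of these genes, so no matches overlapped. TGACAG occurs in 19.2% and TGATTNAT in 3.22% of 32851 mouse promoter entries of this length. The search also covered TTTATG, a site of Cdx proteins. That string occurred 2 times in the entry of Hoxa7 and in none of the other entries of these genes, and it occurs in 11.9% of the mouse entries. The whole 300-base entries of Hoxa5, Hoxa10 and Meis1, of which 250 bases are shown above, held 61.7%, 54.3% and 58.3% G and C. Hoxa10 has another entry (chr6:52234890-52235189), inside the gene, with 57.3%.

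The other 5 genes did not pass in MPP. Hoxa9 had 48.1, 36.2, 43.2 and 34.8 CPM in aged MPP, against 48, 57.3, 55.7 and 54.3 CPM in young MPP. Aged library 1 reached the lowest young library and the rest stood below. Its log2 change was -0.41 ± 0.139 (adjusted p = 0.061), and -0.50 with adjusted p = 0.033 without aged library 1. Pbx3 had 12.7 ± 4.28 CPM in aged MPP and 9.71 ± 1.82 CPM in young MPP (log2 change 0.39, adjusted p = 0.22). Hoxb5 rested on few counts in MPP, with 38 counts over the aged and 17 over the young libraries (0.884 ± 0.442 and 0.52 ± 0.188 CPM, log2 change 0.76, adjusted p = 0.34). Hoxb4 and Hoxa7 had log2 changes of -0.30 and -0.09 (adjusted p = 0.41 and 0.88).

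Markers of some other cells differed between the ages in MPP. B and plasma cell markers, 12 of 12 with a count at both ages, took 0.198% to 0.908% of counts in aged against 0.0142% to 0.0457% in young MPP, highest in aged library 4. Granulocyte markers overlapped between the ages, at 0.151% to 0.553% in aged and 0.0765% to 0.331% in young MPP. Monocyte and macrophage markers overlapped slightly, at 0.0205% to 0.0687% in aged and 0.00487% to 0.0206% in young MPP. Megakaryocyte and platelet markers were lower without overlap, at 0.0237% to 0.0252% in aged and 0.0348% to 0.0494% in young MPP (12 and 11 of 12 with a count). Their part in the lower levels of Hoxa5, Hoxa10 and Meis1 was not tested. Without aged MPP library 4 the log2 changes were -0.75 for Hoxa5 (adjusted p = 0.021), -0.30 for Meis1 (0.036) and -0.64 for Hoxa10, which no longer passed (0.055).

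**Figure D2:**
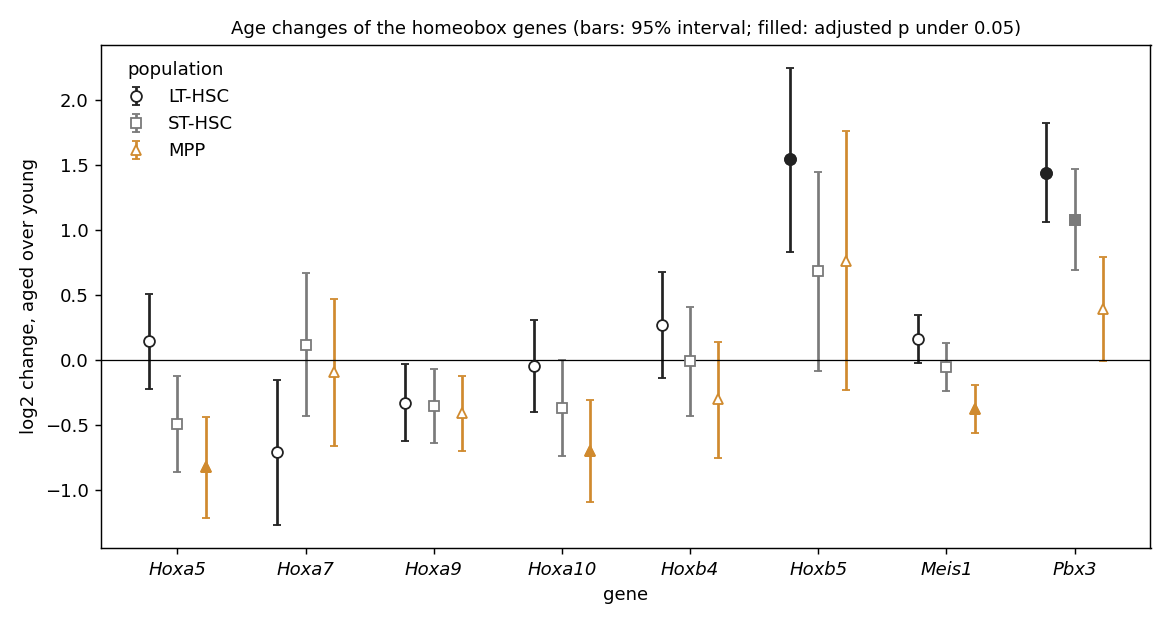
Log2 change of each homeobox gene with age (aged over young) in LT-HSC (circles), ST-HSC (squares) and MPP (triangles), with 95% intervals from the edgeR fit; filled symbols passed adjusted p of 0.05. Pbx3 and Hoxb5 lie highest in LT-HSC at 1.44 and 1.54, and the filled MPP symbols of Hoxa5, Hoxa10 and Meis1 lie at or below -0.38.

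Whether the change with age differed between populations was tested directly, as the age change in LT-HSC minus that in MPP. It differed for Pbx3, at 1.05 ± 0.262 (adjusted p = 0.01), for Hoxa5, at 0.97 ± 0.251 (0.013), and for Meis1, at 0.54 ± 0.124 (0.0056). For Pbx3 the rise in LT-HSC stood beside a smaller difference in MPP that did not pass, and for Hoxa5 and Meis1 a fall in MPP stood beside no passed change in LT-HSC. The difference of Hoxa5 shrank to 0.67 (adjusted p = 0.046) without aged LT-HSC library 2, where that gene was highest. Over all tested genes 9.93% passed this test in either direction, 5.05% with a larger and 4.89% with a smaller value in LT-HSC. Hoxa10 did not pass (0.65, adjusted p = 0.099), but passed without aged MPP library 1 (0.79, 0.048) or young MPP library 4 (0.82, 0.025). For Hoxb5 the difference was 0.78 with adjusted p = 0.46.

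None of the 8 genes passed in the test of LT-HSC against ST-HSC by edgeR, where 4.05% of all genes passed (1.65% with a larger and 2.39% with a smaller value in LT-HSC), or of ST-HSC against MPP, where 0.465% passed (0.183% larger and 0.282% smaller in ST-HSC). The count was also 0 by DESeq2 and limma-voom and in the other alternatives, and at an unadjusted p under 0.05 it was 2 in each test. The difference of Pbx3 between LT-HSC and ST-HSC was 0.36 (adjusted p = 0.49), and that of Hoxb5 was 0.86 with a 95% interval of -0.19 to 1.9 (adjusted p = 0.38), so its rise in LT-HSC is not shown to be larger than its difference in ST-HSC.

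Between populations, 6 of the 8 genes were higher in LT-HSC than in MPP at both ages, and Hoxa7 and Hoxa9 passed at neither. Hoxb5 had the largest difference. It was at 17.5 to 24 CPM in aged LT-HSC, against 0.494 to 1.51 CPM in aged MPP, a log2 change of 4.51 or 22.7-fold (adjusted p = 3.3e-10). In young mice Hoxb5 was at 5.93 to 8.76 CPM in LT-HSC, against 0.243 to 0.66 CPM in MPP, a log2 change of 3.73 or 13.2-fold (adjusted p = 9.9e-08). In aged mice Pbx3, Hoxa10, Hoxb4, Hoxa5 and Meis1 followed with log2 changes of 2.38, 2.20, 2.07, 1.91 and 1.44, and in young mice with 1.33, 1.55, 1.5, 0.94 and 0.89 (adjusted p of at most 0.00012 in each). Over all tested genes 56.8% passed in aged mice, with 28.3% higher and 28.5% lower in LT-HSC, and 37.2% in young mice, with 18.9% higher and 18.3% lower. The median log2 change of the 8 genes was 1.99 in aged and 1.14 in young mice, against 0.017 and 0.002 over all tested genes.

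**Figure D3:**
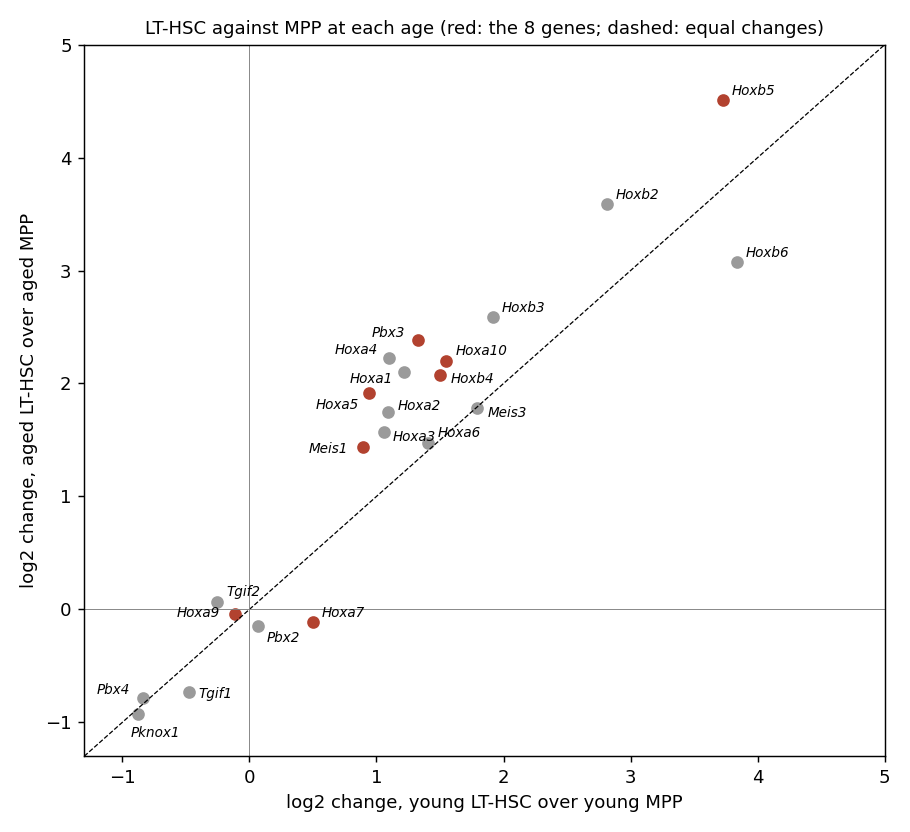
Log2 change of LT-HSC over MPP in young (x axis) and aged (y axis) mice for the 8 homeobox genes (red) and 14 other Hox and TALE genes (grey); the dashed line marks equal changes. Of the 22 genes plotted, Pbx3, Hoxa5 and Meis1 alone passed the test of the age change in LT-HSC minus that in MPP. Hoxb5 lies highest in aged mice at 4.51, and Hoxb6 in young mice at 3.84. The figure leaves out 5 genes with few counts in MPP, and its axes share no library.

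The mean of ST-HSC lay between those of LT-HSC and MPP at both ages for 6 of the 8 genes, all but Hoxa7 and Hoxa9. Pbx3 was at 66.3 ± 2.56 CPM in aged LT-HSC, 24.2 ± 5.17 CPM in aged ST-HSC and 12.7 ± 4.28 CPM in aged MPP, and the steps had log2 changes of 1.45 and 0.93 (adjusted p = 4.6e-07 and 0.00038). In young mice it was at 24.4 ± 1.68, 11.5 ± 1.48 and 9.71 ± 1.82 CPM, and the LT-HSC to ST-HSC step passed (1.09, adjusted p = 0.00013) while the ST-HSC to MPP step did not (0.24, 0.42). Hoxa10 fell in level at each step, with 41 ± 6.24, 21.5 ± 2.64 and 8.91 ± 1.85 CPM in LT-HSC, ST-HSC and MPP of aged mice, and 42.3 ± 4.51, 27.7 ± 2.87 and 14.4 ± 4.34 CPM in those of young mice. All 4 steps of Hoxa10 passed, that between young LT-HSC and ST-HSC with adjusted p = 0.016, which became 0.058 with young LT-HSC library 3 left out and 0.06 with young ST-HSC library 4 left out. Meis1 was higher in aged LT-HSC than in aged ST-HSC (0.40, adjusted p = 0.00074), and the same step in young mice did not pass (0.19, 0.19).

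Hoxa9 was the exception, with its highest mean in ST-HSC at both ages. Its aged LT-HSC mean of 39.5 ± 8.05 CPM was below the aged ST-HSC mean of 57.3 ± 12.2 CPM (log2 change -0.53, adjusted p = 0.0041), and aged MPP stood at 40.6 ± 6.21 CPM (ST-HSC over MPP 0.50, adjusted p = 0.0077). Without the 4 libraries high in granulocyte markers these were -0.22 and 0.16 (adjusted p = 0.52 and 0.7), and the second had adjusted p = 0.063 without aged ST-HSC library 3 alone. In young mice the libraries of Hoxa9 were close together, with 44.8 to 54.2 CPM in LT-HSC, 71 to 75.6 CPM in ST-HSC and 48 to 57.3 CPM in MPP. Young ST-HSC stood above every young LT-HSC and MPP library. The young log2 changes were -0.56 for LT-HSC over ST-HSC (adjusted p = 0.0058) and 0.44 for ST-HSC over MPP (0.022), and the second became 0.057, 0.052 and 0.089 without young ST-HSC library 1, young ST-HSC library 2 and young MPP library 1.

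Hoxa7 was also lower in aged LT-HSC than in aged ST-HSC, at 7.34 ± 2.62 against 12 ± 3.3 CPM (log2 change -0.71, adjusted p = 0.042). That call was lost in a fit to those groups alone (0.08) and without any of aged LT-HSC libraries 1, 3 and 4 or aged ST-HSC libraries 1 and 3, with adjusted p up to 0.16, and stood at -0.43 (0.54) without the 4 libraries. Hoxb4 was at 36.2 ± 4.82 CPM in aged LT-HSC and 19.3 ± 2.04 CPM in aged ST-HSC (0.91, adjusted p = 8e-04), and at 29.9 ± 5.57 and 19.3 ± 5.95 CPM in young LT-HSC and ST-HSC (0.63, adjusted p = 0.035). The young difference of Hoxb4 was lost in 8 of 16 alternatives, among them leaving out young ST-HSC library 2 (0.48, adjusted p = 0.13), and the aged one without the 4 libraries (0.93, 0.071). Hoxa5 was higher in aged ST-HSC than in aged MPP (0.96, adjusted p = 0.00024, and 0.81 with 0.077 without the 4 libraries) and in young ST-HSC than in young MPP (0.63, adjusted p = 0.013, and 0.56 with 0.053 without young MPP library 1).

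Counted over the 8 genes, LT-HSC over ST-HSC had 6 higher and 2 lower in aged mice and 4 higher and 1 lower in young mice, while 32.3% and 12.5% of all tested genes passed. Those shares divided into 16.2% higher and 16.1% lower in aged mice, and 6.79% higher and 5.74% lower in young mice. ST-HSC over MPP had 7 of the 8 genes higher in aged mice and 6 in young mice, against 29.9% and 20.6% of all genes in either direction. Of these 15.5% were higher and 14.4% lower in aged mice, and 10.5% and 10.1% in young mice. Both steps of a gene use the same ST-HSC libraries, so they are not independent.

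Of the 39 mouse Hox genes, 18 passed the count filter, 9 of 11 in the Hoxa cluster, 7 of 10 in Hoxb, 2 of 9 in Hoxc and none of 9 in Hoxd, where 17 counts were found over all libraries. Hoxb8, Hoxb9, Hoxc5 and Hoxc6 had fewer than 4 libraries outside LT-HSC above the filter's minimum of 1.16 CPM, so they entered the test because LT-HSC was high and their differences are given as description only. Of the other 14 Hox genes, 3 rose with age in LT-HSC, Hoxb3, Hoxb5 and Hoxb6, against 9.98% of all tested genes. Hoxb3 was at 29.5, 38.3, 34.9 and 32 CPM in aged LT-HSC, against 15.7, 13.9, 18.3 and 18.7 CPM in young LT-HSC, without overlap (log2 change 1.01 ± 0.19, adjusted p = 0.00037). Hoxb9 was at 7.62, 9.05, 9.69 and 6.71 CPM in aged LT-HSC, against 0.949, 0.383, 1.04 and 0.38 CPM in young LT-HSC, from 283 and 26 counts. Outside LT-HSC, Hoxb9 had at most 3 counts in any group.

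Hoxb6 averaged 8.89 ± 1.66 CPM in aged LT-HSC and 2.81 ± 1.47 CPM in young LT-HSC (log2 change 1.67, adjusted p = 0.016), and had adjusted p = 0.059, 0.054 and 0.06 without aged LT-HSC library 3, young LT-HSC library 3 and young LT-HSC library 4. Hoxb8 had 264 counts in aged LT-HSC and 38 in young, where libraries 1 to 4 held 18, 0, 19 and 1. Hoxb4 and Hoxb2, neighbours in the same cluster, did not pass. No Hoxa gene passed in LT-HSC by edgeR, DESeq2 or limma-voom, and 2 were lower at an unadjusted p under 0.05.

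**Figure D4:**
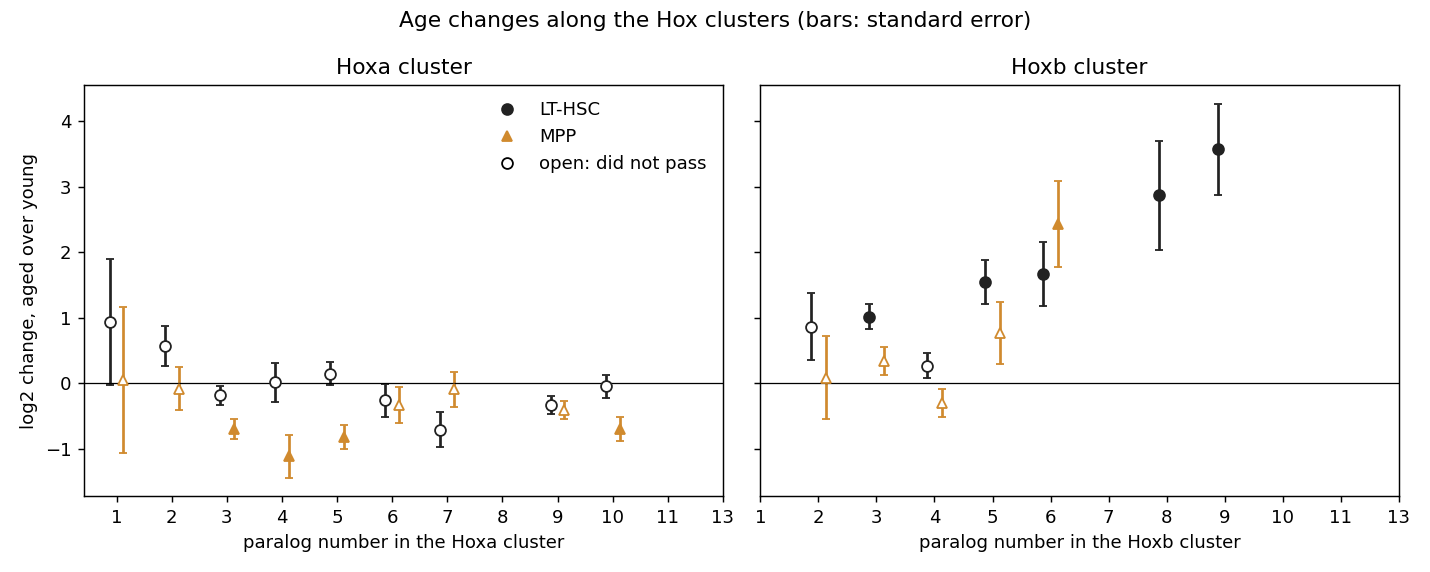
Log2 change with age (aged over young) of the tested genes of the Hoxa cluster (left) and the Hoxb cluster (right) by paralog number, in LT-HSC (circles) and MPP (triangles), with standard errors; filled symbols passed adjusted p of 0.05. In LT-HSC the symbols of Hoxb3, Hoxb5 and Hoxb6 are filled, from 1.01 to 1.67. Those of Hoxb8 and Hoxb9 are filled too, but these genes entered the test because LT-HSC was high, so their differences are description only. In MPP Hoxa3, Hoxa4, Hoxa5 and Hoxa10 lie below 0.

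In MPP the genes that fell were Hoxa genes. Hoxa3 was at 19.1, 16.6, 13.3 and 14 CPM in aged MPP, against 25.5, 25.2, 23.1 and 28.3 CPM in young MPP, without overlap (log2 change -0.70 ± 0.154, adjusted p = 0.0039). Hoxa4 averaged 1.61 ± 0.367 CPM in aged MPP and 3.52 ± 1.09 CPM in young MPP (-1.11 ± 0.323, adjusted p = 0.026), and was lost in 6 alternatives, with adjusted p up to 0.12. The exception to the direction was Hoxb6, higher in aged MPP from 44 counts against 6 in young MPP (2.43 ± 0.651, adjusted p = 0.015, and 2.06 with 0.054 without young MPP library 2). Among these 14 Hox genes 1 was higher and 4 were lower in MPP, against 5.53% and 4.27% of all tested genes. In ST-HSC none of the 18 passed by edgeR, with 1 lower by DESeq2 and by limma-voom and 5 lower at an unadjusted p under 0.05. Of the 14 genes, 11 were higher in LT-HSC than in MPP in aged mice and 11 in young mice, Hoxa7 and Hoxa9 not among them, where 28.3% and 18.9% of all tested genes were higher.

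Among 17 TALE genes, 9 were tested, of which 2 were higher in LT-HSC, Pbx3 and Meis3, and 2 were lower, against 9.98% and 8.87% of all tested genes. Pbx2 and Pknox1 were lower in aged LT-HSC, at 61.2 ± 6.21 against 75.4 ± 4.68 CPM (-0.30, adjusted p = 0.018) and 47.4 ± 8.15 against 59.8 ± 4.72 CPM (-0.33, 0.031). Pbx2 lost its call without aged LT-HSC library 3 (0.056) or young LT-HSC library 4 (0.058), and Pknox1 in 4 alternatives (adjusted p up to 0.11). Meis3, at 9.37 ± 0.782 CPM in aged LT-HSC and 3.74 ± 1.1 CPM in young LT-HSC (log2 change 1.32, adjusted p = 0.048), was lost in most alternatives. Meis2 had a log2 change of 2.20 with age in LT-HSC. Per kilobase of exon, LT-HSC held 1.07 CPM of Meis2 when aged and 0.228 when young. ST-HSC held at most 0.104 and MPP 0. Like Hoxb8, Meis2 thus entered the test because LT-HSC was high, and its difference is description only. Pbx4 did not pass (-0.22, 0.48), and was lower without young LT-HSC library 1 (-0.46, 0.031).

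Genes that act on Hox genes were listed as activators and Polycomb repressors, and genes reported downstream of Hoxa9 and Meis1 as a list of their own. Each list is to be read against the 9.98% of all tested genes that were higher and 8.87% that were lower in LT-HSC. In ST-HSC these shares were 3.58% and 2.21%, and in MPP 5.53% and 4.27%. Of 17 activators tested, 1 was higher and 3 lower in LT-HSC, near the LT-HSC background: Mllt3 rose (log2 change 0.47, adjusted p = 0.0075), and Dot1l, the H3K79 methyltransferase, Mllt1 and Men1 fell (-0.46, -0.37 and -0.32, with 0.0026, 0.027 and 0.036). Mllt1 and Men1 were lost without single libraries, with adjusted p up to 0.086 and 0.097. In ST-HSC Men1 alone passed (-0.40, adjusted p = 0.027, up to 0.13 in alternatives). In MPP Kmt2a, which codes for the H3K4 methyltransferase that maintains Hox expression, fell by 0.32 on the log2 scale (adjusted p = 0.0036), and Ash1l by 0.27 (0.048, up to 0.22).

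Of 18 Polycomb genes, 2 were higher and 5 lower in LT-HSC, against 9.98% and 8.87% of all tested genes. The methyltransferase gene Ezh1 rose (0.83, adjusted p = 2.4e-06), while Ezh2, its paralog, fell (-0.97, 5.9e-05), as did Cbx2 (-1.19, 6.6e-06) and Rbbp7 (-0.41, 5e-04). In ST-HSC 2 genes were lower, Cbx6 (-0.44, adjusted p = 0.0062) and Phc3 (-0.29, 0.027), against 2.21% of all tested genes. In MPP Cbx6 and Phc3 were lower again (-0.51 with 0.001, and -0.26 with 0.037), against 4.27% of all tested genes. Phc3 was lost in several alternatives in both populations, with adjusted p up to 0.12 in ST-HSC and 0.16 in MPP. None of the 5 tested noncoding RNAs of the Hox clusters passed between the ages in any population by edgeR, DESeq2 or limma-voom, and 1 was lower at an unadjusted p under 0.05, in ST-HSC. The antisense Hoxaas3 had 9.2 ± 2.55 CPM in aged LT-HSC and 12.5 ± 1.53 CPM in young LT-HSC, beside the lower mean of Hoxa7.

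Of 17 genes reported downstream of Hoxa9 and Meis1, 7 were higher and 4 lower in LT-HSC, against 9.98% and 8.87% of all tested genes. Cd34, the stem and progenitor surface marker, fell by 1.02 on the log2 scale (adjusted p = 8.4e-07), the receptor gene Flt3 by 1.17 (3.2e-06) and the kinase gene Syk by 0.67 (3.7e-06). Bcl2, an inhibitor of cell death, rose in LT-HSC (0.77, 7.2e-06), ST-HSC (0.48, 0.0072) and MPP (0.82, 9.3e-06). In ST-HSC Cdk6 (0.83, adjusted p = 2.5e-05) and Pim1 (0.61, 0.0073) rose, and without the 4 libraries Bcl2 and Pim1 had log2 changes of 0.56 and 0.58 that did not pass (adjusted p = 0.086 and 0.19). In MPP the stem cell factors Hlf and Mecom fell (-0.87 with 3.4e-06, and -0.59 with 0.00014) and Pim1 rose (0.76, 0.00064), beside the lower Meis1.

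Among 18 other homeobox genes of blood, 3 were higher and 2 lower in LT-HSC, where 18.9% of all tested genes passed in either direction, led by Satb1, a lymphoid chromatin organiser (-1.37, adjusted p = 4.3e-06), and Pou2f1 (0.65, 9.2e-05). Pou6f1 (0.64, 0.021) and Zfhx3 (-0.37, 0.023) lost their calls without single libraries, with adjusted p up to 0.1 and 0.064. Zeb2, a repressor of epithelial genes that also acts in blood lineages, was higher in LT-HSC (0.28, 0.046, up to 0.25 in alternatives), ST-HSC (0.44, 0.0066) and MPP (0.76, 7e-06). In MPP Pou6f1 was also higher (0.68, 0.033), and Cux1 (-0.31, 0.016) and Zeb1 (-0.30, 0.027) were lower, and each lost its call without aged MPP library 4, among other alternatives (0.16, 0.083 and 0.11).

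For each of the 8 genes, the 2 genes of at least 10 CPM whose centred log2 profile over the 24 libraries lay nearest were named, out of 9446 candidates, by the root mean square difference. Meis1 had the nearest neighbours, Csad at 0.136 and Gabbr1 at 0.14 log2 units. Hoxa9 followed with Zfp608 at 0.176 and the homeobox gene Zfhx3 at 0.192. Zfp608 shared the maximum in ST-HSC, at 368 CPM in aged ST-HSC and 391 CPM in young ST-HSC. Nearest to Hoxa5 were Eng (0.233) and Gprasp1 (0.234), to Hoxb4 Syt11 (0.277) and Tnks1bp1 (0.282), to Hoxa10 Tle6 (0.284) and Tom1l1 (0.289), and to Hoxa7 Adam11 (0.303) and Bcl9 (0.352). Pbx3 was nearest to Itga6 (0.289), an integrin gene at 574 CPM in aged LT-HSC and 231 CPM in young LT-HSC, and to Maff (0.34). Hoxb5 had the largest differences from its nearest genes, Art4 at 0.531 and Fhl1 at 0.574. These differences are not scaled to each gene's own spread, an SD of 1.74 log2 units for Hoxb5 and 0.459 for Hoxa7. Among the 8 genes themselves the closest pair was Hoxa5 and Meis1 at 0.288 and the farthest Hoxa9 and Hoxb5 at 1.84, all over libraries that share population and age.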

How the data were processed

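The deposited table holds raw read counts per gene, whole numbers that the authors made, per the submitters' processing notes, with Trim Galore, HISAT2 and featureCounts on mouse build mm10. Per the labels, cDNA was primed with not-so-random primers and libraries were made with Nextera XT, a chemistry that marks no strand and carries no molecular identifiers. The sources used here give no versions, no annotation and no strand setting. Dates had replaced 27 gene symbols (at most 0.192% of a library's counts). No 2 libraries were identical.

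The 24 libraries were fitted together in edgeR 4.0.16 (R 4.3.3, limma 3.58.1), with 1 mean per population and age, genes kept by filterByExpr (minimum count 10) and TMM factors of 0.937 to 1.06. This left 18 residual degrees of freedom and a biological coefficient of variation of 0.213. The robust quasi-likelihood test was two-sided, with p-values adjusted by Benjamini-Hochberg over 14205 genes in each of 12 contrasts, and the threshold was 0.05. The script was tested on simulated data. Alternatives were RLE factors, DESeq2 1.42.0, limma-voom, no count filter, only the groups compared, a replicate block and each library left out. Another 2 alternatives, each leaving out several libraries together, were chosen after seeing the data.

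All 8 genes are named in every comparison, as are the other Hox and TALE genes that passed the filter where they passed a test, up to 4 genes of smallest p per other list and age comparison, and the 2 nearest profiles per gene. Of the lists, 2 genes are not reported here and were left out of the counts. Members and lists were chosen with earlier results of these data known. Gene positions and exon lengths come from GENCODE vM21 on GRCm38, the build called mm10, and exon lengths use transcripts linked to RefSeq.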

Additional observations from a re-analysis of the deposited data

Results flagged for a closer look

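Among 48 sets of 4 libraries (8 genes in 6 groups), 2 held a library far from the other 3 by Dixon's 95% critical value for the gap to the nearest library as a share of the whole range. Chance alone marks about 1 set in 20. Hoxa10 stood at 11.7 CPM in aged MPP library 1, against 7.68 to 8.36 CPM in the other aged MPP libraries. Hoxb4 stood at 14 CPM in young MPP library 4, against 9.19 to 9.86 CPM in the other young MPP libraries.

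The change with age differed between populations for 3 genes by the edgeR test of the difference itself. The difference between LT-HSC and MPP was 1.05 for Pbx3, 0.97 for Hoxa5 and 0.54 for Meis1 on the log2 scale (adjusted p = 0.01, 0.013 and 0.0056).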

How the results depend on the processing

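For the 8 genes in 12 comparisons, 96 results were recomputed under the alternative settings, which gave 1678 values. Of these values 1594 kept the direction and side of the threshold, 34 lost a call, 7 gained one and 43 changed sign. Of 47 calls 37 passed under every alternative run. The 10 others were Hoxa10 with age in MPP, Hoxa7, Hoxa9 and Hoxb4 in aged LT-HSC over ST-HSC, Hoxa5 and Hoxa9 in aged and in young ST-HSC over MPP, and Hoxa10 and Hoxb4 in young LT-HSC over ST-HSC. Levels of the 8 genes moved by less than 1 SD with RLE factors or none. No called result changed sign. The cause of these shifts was not tested, apart from settings that use fewer libraries. Hoxb5 had only 38 counts over the aged and 17 over the young MPP libraries, which limits its precision there.

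Genes called with age in ST-HSC were 823, and 534 from the groups compared alone, 453 without young LT-HSC 1, aged ST-HSC 2 and 3, 184 without the 4 libraries high in granulocyte markers (which leave 1 aged ST-HSC library, assumed to vary like the other groups), and 503 to 713 leaving out 1 library (543 and 503 without young ST-HSC 2 and 3). With age in MPP 1391 genes were called (914 to 1358, lowest without aged MPP 4). The LT-HSC minus ST-HSC age test called 575 genes, 944 by DESeq2, 897 without the 3 libraries and 377 to 822 leaving out 1, lowest without young LT-HSC 3. The ST-HSC minus MPP test called 66, 180 by DESeq2, 18 by limma-voom, 25 from the groups alone, 24 without the 3 libraries and 3 without the 4. Without the 4, aged LT-HSC over ST-HSC had 2640 genes (4582 with them) and 5 of the 8 genes in place of 8. Aged ST-HSC over MPP had 4244 genes, 2698 without the 3 and 1353 without the 4. Leaving out 1 library, 1 to 2 of the 8 genes passed with age in ST-HSC (1 with all, and Hoxa9 too without aged ST-HSC 3), and 3 to 5 in young LT-HSC over ST-HSC (5 with all, 3 without young LT-HSC 3).

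Sign changes were of uncalled values. The log2 change of Hoxb4 with age in ST-HSC was 0.009 by limma-voom and 0.008 with the replicate block, and that of Hoxa7 was -0.177 without the 4 libraries. In the ST-HSC minus MPP test, Hoxb5 had 0.108 by limma-voom, 0.013 with the block, 0.249 without the 3 and 0.206 without the 4 libraries, Hoxa9 -0.138 and -0.285, and Hoxa7 -0.091 without the 4. Leaving out 1 library, log2 changes with age in LT-HSC ranged over -0.143 to 0.258 for Hoxa5 and -0.124 to 0.028 for Hoxa10. In ST-HSC they were -0.036 to 0.254 for Hoxa7, -0.168 to 0.183 for Hoxb4 and -0.096 to 0.029 for Meis1, and in MPP -0.263 to 0.099 for Hoxa7. Hoxa9 ranged over -0.128 to 0.143 in LT-HSC minus ST-HSC, -0.07 to 0.167 in LT-HSC minus MPP, -0.086 to 0.157 in ST-HSC minus MPP and -0.178 to 0.059 in aged LT-HSC over MPP. Hoxb5 ranged over -0.335 to 0.304 in ST-HSC minus MPP and Hoxa7 over -0.377 to 0.012 in aged LT-HSC over MPP.

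Libraries with the same number correlated at -0.042 to 0.117 between ages and -0.041 to 0.13 between populations, which did not meet the rule for pairing (every pair over 0.1). The library of highest correlation bore the same number in 9 of 24 looks between ages and 19 of 48 between populations, where 4 unrelated numbers give 6 and 12, and the second is a hint from the data, not the design. With the replicate block the genes called with age were 2671 against 2678 in LT-HSC, 818 against 823 in ST-HSC and 1397 against 1391 in MPP, and Hoxa7 passed in aged ST-HSC over MPP (0.634, adjusted p = 0.048 by edgeR).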
